A study of Mus musculus with 4 samples.

Results

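The 8 genes described here are transcription factors that pattern the dorsal telencephalon and its cortical areas: Pax6, Emx1, Emx2, Lhx2, Nr2f1, Nr2f2, Sp8 and Dmrta2. They were chosen by gene name, and each was found once among the 22084 genes of the joined count tables and in all 3 deposited tables. RNA of mouse forebrain tissue at E13.5 (days of embryonic development), all of strain B6D2F2, was sequenced in 4 libraries to ask what the loss of Tcf20 does to neurogenesis. Tcf20 is a nuclear protein and a relative of Rai1. KO26F and KO23M are labelled TCF20-/-, WT25F is labelled TCF20+/+, and WT22M has a title that says wild type and a genotype field that says TCF20+/-. Whichever label is right, WT25F and WT22M hold an intact allele, and both are called carriers. The labels do not describe the deleted allele, and they name the tissue both as telencephalon and as cerebral cortex.

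The cortex is laid out by signals from its edges: fibroblast growth factors at the rostral end, Wnt and bone morphogenetic proteins from the cortical hem, and Wnt antagonists and epidermal growth factor ligands from the antihem. These signals set opposing gradients of transcription factors in the progenitors. Pax6 and Sp8 are known to be high rostrally, Emx2 and Nr2f1 caudally, and the level of each biases which cortical area forms. Lhx2 and Emx1 mark cortical identity, and Dmrta2 acts near the hem in maintaining dorsal progenitors. A bulk count sums over such gradients, and fewer cells of a type and less RNA per cell cannot be told apart.

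Library totals ran from 17791641 to 18509743 counts, so 3 counts corresponded to 0.162 to 0.169 CPM, the usual unit of counts scaled to library size. The last letter of each title matched sex-linked genes: Xist stood at 519 and 450 CPM in KO26F and WT25F and at or below 0.169 in KO23M and WT22M. For Tcf20 itself, WT25F had 118 CPM and WT22M 111, KO26F 98.6 and KO23M 104, so the KO-labelled libraries still held most of its RNA. A whole-gene count does not check a deletion whose position the labels do not give. The 5 markers listed for telencephalic neurons, pan-neuronal genes among them, summed to 5340 to 5592 CPM in all 4. Diencephalon markers summed to 65.1 CPM in WT25F against 13.0 in WT22M and no more than 15.99 elsewhere, and choroid plexus markers to 206 CPM in WT22M against 795 to 1021. Nothing in the labels places the libraries in separate litters, and the p-values thus reflect spread among these 4 samples. The KO-labelled pair and the carriers each hold an F and an M library. The spread within each group therefore includes any difference between the letters, and may in part be technical.

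All 8 factors were well above the counting floor in every library, from 268 counts of Sp8 in WT25F to 7506 of Lhx2 in KO26F. Levels of different genes were compared per kilobase of annotated exon. Lhx2, a LIM-homeodomain factor required for cortical identity, was highest at 88.2 ± 5.08 CPM per kb (SD, n = 4). Emx1, a homeodomain factor of cortical progenitors and projection neurons, followed at 56.7 ± 6.90, and Nr2f1, an orphan nuclear receptor also called COUP-TFI, at 37.1 ± 2.55. Dmrta2 stood at 20.8 ± 1.98, Emx2 at 13.9 ± 0.55, Nr2f2 at 10.4 ± 1.02, Pax6 at 5.57 ± 0.39 and Sp8 at 3.65 ± 0.40 CPM per kb. Between neighbours in this order, the ranges of the 4 libraries did not overlap. With the longest transcript as length, Nr2f2 (19.1 to 23.2 CPM per kb) and Dmrta2 (18.9 to 23.6) overlapped, as did Pax6 (13.8 to 16.2) and Emx2 (13.6 to 14.9). The order of these 4 therefore depends on the length used, while Lhx2, Emx1 and Nr2f1 led and Sp8 was last under both.

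None of the 8 factors passed the test between the KO-labelled libraries and the carriers. In edgeR's quasi-likelihood test with Benjamini-Hochberg adjustment, 0 of 8 had an adjusted p under 0.05, against 10 of 16252 genes tested (0.0615%). At an unadjusted p under 0.05 the counts were 0 of 8 and 464 genes (2.86%). DESeq2 and limma voom also called 0 of 8. The fitted values of 6 factors were on the higher side, compared with 50.7% of all genes, and the median log2 fold change was 0.10 for the 8 and 0.00 for all genes. In plain CPM, 4 factors (Lhx2, Nr2f1, Sp8 and Dmrta2) were higher in both KO-labelled libraries than in both carriers, a pattern held by 13.6% of all genes. Dmrta2 left this set when library sizes were scaled by TMM, which left 3 factors against 13.9%. No factor was lower in both KO-labelled libraries, against 13.4% of all genes in CPM.

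**Figure D1:**
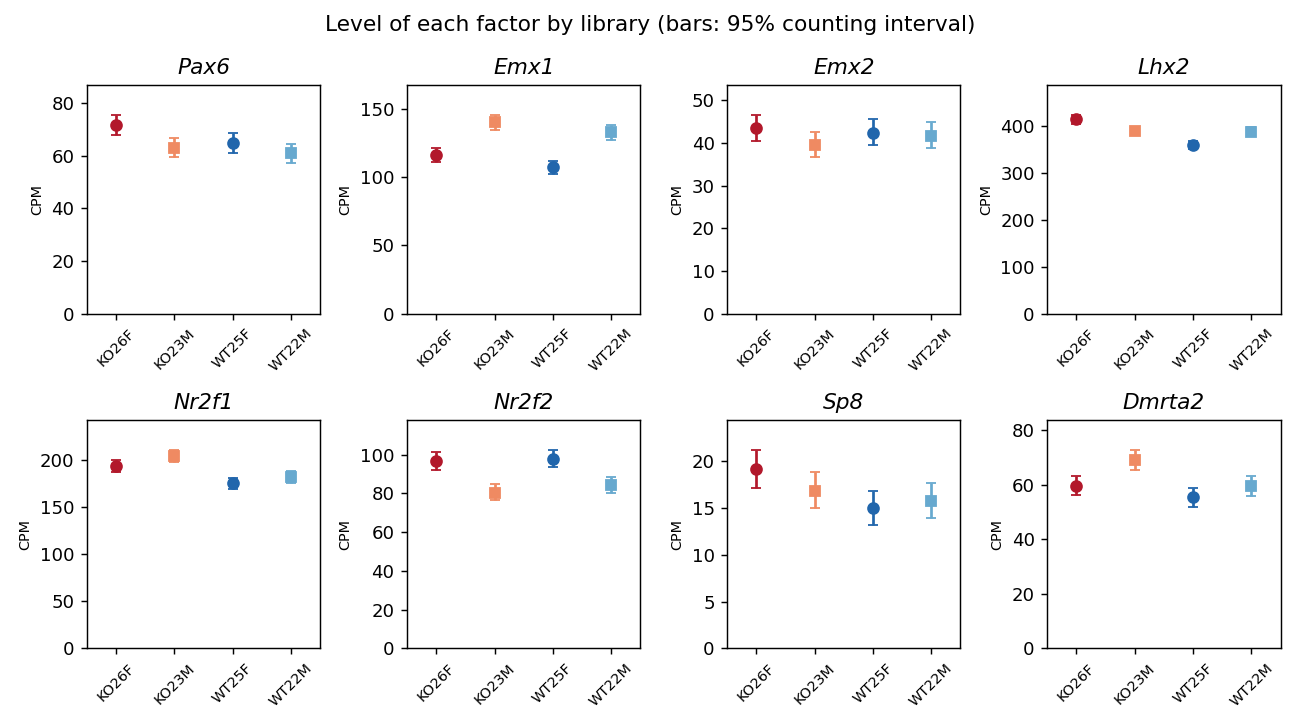
CPM of each of the 8 factors in each library, with the 95% counting interval as bars (circles: title letter F, squares: title letter M; red tones: KO-labelled, blue tones: carriers). Emx1 and Nr2f2 separate by the letter rather than by the Tcf20 label, with counting intervals that do not overlap between letters. Pax6 and Emx2 do so in their CPM values, with overlapping intervals. Of all genes, 18.6% were higher and 29.6% lower in both M libraries than in both F libraries. Lhx2, Nr2f1, Sp8 and Dmrta2 are lowest in WT25F.

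Among the rostral factors, Pax6, a paired-domain and homeodomain factor that drives radial glia toward neurogenesis, had overlapping groups. KO26F had 71.6 CPM and KO23M 63.1, WT25F 64.9 and WT22M 60.9. The KO-labelled mean was 67.3 ± 6.05 CPM and the carrier mean 62.9 ± 2.82 (SD, n = 2 each). KO26F was the high library and KO23M lay between the carriers. The log2 fold change was 0.09 (SE 0.11, 95% interval -0.13 to 0.32), and it was 0.02 without KO26F and 0.16 without KO23M. Sp8, a zinc-finger factor that is induced by and sustains rostral Fgf8, was the least abundant member. KO26F had 19.1 CPM and KO23M 16.8, against WT25F with 14.9 and WT22M with 15.7. Both KO-labelled values were above both carriers, but the counting intervals of KO23M (up from 14.99 CPM) and WT22M (up to 17.7) overlapped. The log2 fold change of Sp8 was the largest of the 8 at 0.22 (SE 0.16), with an interval from -0.10 to 0.54 whose upper end is a 1.46-fold difference. It was 0.15 without KO26F and 0.29 without KO23M.

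Emx2, a homeodomain factor high in caudal and medial cortex, had the fitted value nearest 0. The carriers WT25F and WT22M had 42.5 and 41.8 CPM, KO26F had 43.5 and KO23M 39.6. The 2 KO-labelled values lay on either side of the carriers. Its log2 fold change was -0.02 (SE 0.11, interval -0.26 to 0.21). Its antisense neighbour Emx2os shares 264 exonic bases with it and had 4.65 to 7.19 CPM. No strand setting is stated, so reads of that stretch cannot be told apart.

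Emx1 was at 140 CPM (KO23M) and 133 (WT22M) in the libraries titled M and at 116 (KO26F) and 107 (WT25F) in those titled F. The letter M went with the high values in both groups, and the KO-labelled and carrier values overlapped. Its log2 fold change between KO-labelled libraries and carriers was 0.09 (SE 0.13, interval -0.18 to 0.37). That value turned to -0.075 when KO23M was left out and to -0.073 when WT25F was left out, and reached 0.27 without WT22M.

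Lhx2 reached 414 CPM in KO26F, with KO23M (389) and WT22M (387) together below it and WT25F (360) lowest. The counting intervals of KO23M (380 to 398 CPM) and WT22M (378 to 397) nearly coincided, and the separation of the groups came from KO26F and WT25F. The log2 fold change was 0.10 (SE 0.10, interval -0.11 to 0.31), and it was 0.03 without WT25F and 0.17 without WT22M. Within the letter F the log2 ratio of KO-labelled to carrier was 0.20 (95% counting interval 0.16 to 0.25), and within the letter M it was 0.01 (-0.04 to 0.06). These are single pairs of libraries, and the intervals cover counting error only.

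Dmrta2, a DM-domain factor also called Dmrt5, was at 68.9 CPM in KO23M, then 59.6 (KO26F), 59.4 (WT22M) and 55.3 (WT25F). KO26F and WT22M were nearly level, which is why the separation of groups depended on the scaling. Its log2 fold change was 0.16 (SE 0.12, interval -0.08 to 0.40). With 1 library left out it was 0.03 without KO23M, 0.09 without WT25F, 0.23 without WT22M and 0.28 without KO26F. Dmrta2os, a divergent antisense gene that starts near Dmrta2, had 4.79 to 6.18 CPM.

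Nr2f1, the first of the COUP-TF receptors, which represses rostral and promotes caudal sensory area identity, had KO-labelled values of 194 CPM (KO26F) and 205 (KO23M) and carrier values of 175 (WT25F) and 182 (WT22M). Both KO-labelled libraries were above both carriers, and the mean was 199 ± 7.91 against 179 ± 4.72 CPM (SD, n = 2 each). The log2 fold change was 0.15 (SE 0.10, interval -0.06 to 0.36), and it was 0.09 without KO23M and 0.21 without KO26F. Within the letters the log2 ratio was 0.14 (counting interval 0.07 to 0.21) in F libraries and 0.17 (0.10 to 0.24) in M libraries. A830082K12Rik, on the opposite strand, shares 123 exonic bases with Nr2f1 and had 20.5 to 23.2 CPM. As no strand setting is stated, reads of that stretch cannot be told apart. With the title letter as a block, Nr2f1 was the one member under 0.05 before adjustment, and its edgeR adjusted p was 0.515. In that fit 123 genes (0.757%) and 0 of 8 factors passed the threshold, and 6.82% of all genes had an unadjusted p under 0.05. The fit with the block has 1 residual degree of freedom and takes the spread almost wholly from other genes. Its adjusted p-values, here and below, may be too small.

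Nr2f2, known as COUP-TFII and strong in caudal ganglionic eminence, hem and vessels, was at 98.0 CPM (WT25F) and 96.8 (KO26F) in F libraries and at 84.4 (WT22M) and 80.4 (KO23M) in M libraries. The F libraries were high and the M libraries low in both groups. Its log2 fold change between KO-labelled libraries and carriers was -0.05 (SE 0.11, interval -0.27 to 0.18). Endothelium and pericyte markers, which share the vessels with Nr2f2, summed to 359 and 362 CPM in the KO-labelled libraries and to 404 and 402 in the carriers, and their part in the Nr2f2 values was not tested. B130024G19Rik, on the opposite strand, shares 643 exonic bases with Nr2f2 and had 2.92 to 4.29 CPM.

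Since Nr2f1 and Nr2f2 are close relatives, the longest stretch identical in both transcripts was sought, because reads inside it cannot be assigned to either gene. It is 59 bases long and lies in coding exon 1 of both, where the DNA-binding zinc fingers are encoded. In Nr2f1 it is at chr13:78198284-78198342 and in Nr2f2 at chr7:70360052-70360110, both on the minus strand of GRCm38, and the sequence is read 5′ to 3′ from GENCODE vM21 transcripts.
Nr2f1 and Nr2f2 shared run: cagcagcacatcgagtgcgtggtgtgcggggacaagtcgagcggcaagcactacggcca
Only 10 of the 5090 distinct 50-base words of Nr2f1 occur in Nr2f2, and 56 occur in A830082K12Rik. The corresponding run of Emx1 and Emx2 is 14 bases, and those genes share no 50-base word with each other.

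**Figure D2:**
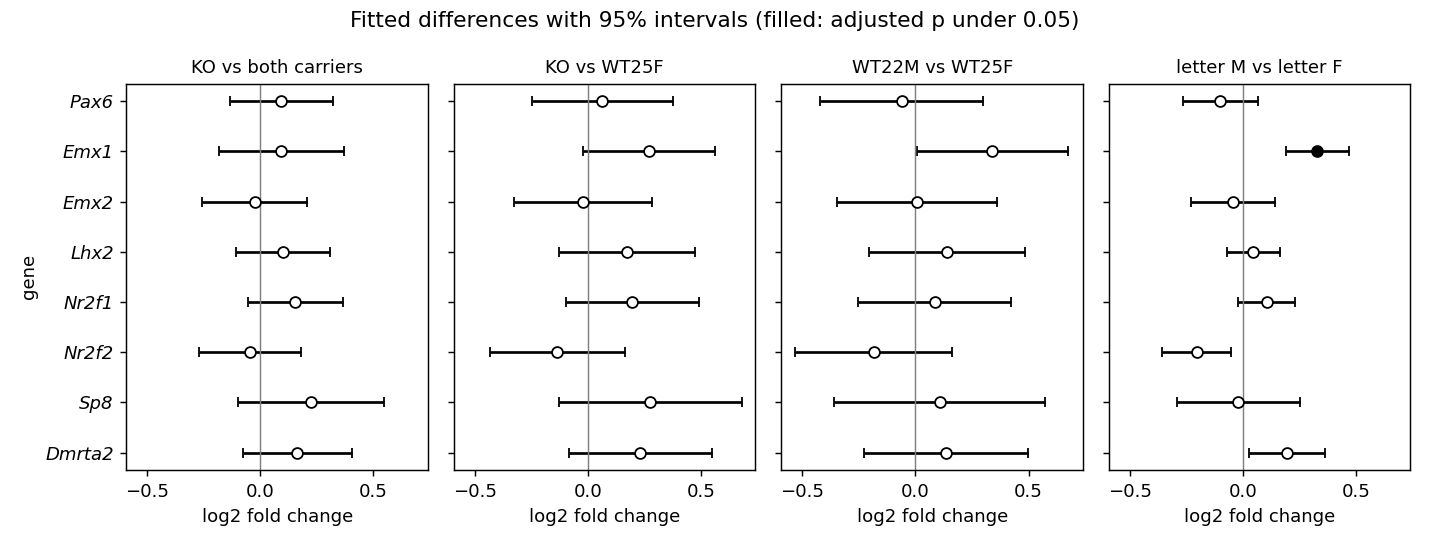
Fitted log2 fold change of each factor with its 95% interval in 4 comparisons (filled: adjusted p under 0.05 in edgeR). Every point of the 3 comparisons by Tcf20 label is open, and Emx1 between title letters is the one filled point.

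Setting the KO-labelled libraries against WT25F alone, the wild type by every label, also called none of the 8. In edgeR's fit with 3 groups, 0 of 8 factors and 56 genes (0.345%) passed, and 0 of 8 against 558 genes (3.43%) had an unadjusted p under 0.05. DESeq2 called 0 of 8 and 23 genes. In the edgeR fit only the KO-labelled pair is replicated, and the spread is taken almost wholly from other genes. The adjusted p-values of that fit may be too small. The values furthest from 0 were Sp8 at 0.28 (SE 0.21), Emx1 at 0.27 (SE 0.15) and Dmrta2 at 0.23 (SE 0.16). WT25F was the lowest library for Emx1, Lhx2, Nr2f1, Sp8 and Dmrta2, and it is also the library with high diencephalon markers, whose part in these values was not tested.

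WT22M against WT25F compares 1 library with 1 library in the same edgeR fit. The spread is assumed for both libraries and is taken almost wholly from other genes, so adjusted p-values may be too small. Again 0 of 8 factors passed in edgeR, against 116 genes (0.714%), and DESeq2 called 0 of 8 and 33 genes. Emx1 was the one member with an unadjusted p under 0.05 (log2 difference 0.34, SE 0.17, edgeR adjusted p = 0.993), as were 4.88% of all genes. Nr2f2 stood at -0.18 (SE 0.18) and Lhx2 at 0.14 (SE 0.18).

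The authors' deposited tables, which set single libraries against WT25F, marked none of the 8 as significant, while they marked 2.90% of genes for KO23M, 1.96% for KO26F and 3.62% for WT22M. By an adjusted p under 0.05 alone, the authors' deposited tables list 5 of 8 for KO23M (22.1% of genes), 3 of 8 for KO26F (13.7%) and 3 of 8 for WT22M (22.4%). In the authors' deposited table Emx1 has a log2 fold change of 0.39 in KO23M and 0.31 in WT22M, a carrier, against 0.12 in KO26F. Nr2f2 has -0.28, -0.22 and -0.02 in the same 3 libraries of the authors' deposited tables. These comparisons share WT25F and have 1 library a side.

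Emx1 and Nr2f2 separate by title letter without overlap of their counting intervals. M was therefore compared with F in a fit with terms for letter and Tcf20 label. This comparison was chosen after the values were seen, so its p-values do not come from a planned test. For Emx1 and Nr2f2 the same direction in both M over F pairs follows from that choice. Emx1 was higher in the M libraries by 0.33 on the log2 scale (SE 0.07, edgeR adjusted p = 0.000566), a 1.26-fold difference, and in the same direction in both pairs. KO23M over KO26F gave 0.27 (counting interval 0.19 to 0.36) and WT22M over WT25F 0.31 (0.22 to 0.40). Emx1 was the 1 of 8 factors called, against 666 of 16252 genes (4.10%). The call did not hold without the term for the Tcf20 label (edgeR adjusted p = 0.0768, 41 genes called). Nor did it hold in DESeq2 without its filter on mean counts (adjusted p = 0.383, 23 genes called). DESeq2 with that filter gave Emx1 no adjusted p. The edgeR fit has 1 residual degree of freedom and takes the spread almost wholly from other genes. On simulated counts with gene-wise dispersions, its false calls exceeded the nominal rate, so this adjusted p may be too small. The edgeR comparisons by Tcf20 label exceeded that rate on such counts too.

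Nr2f2 stood at -0.20 between M and F (log2 difference, SE 0.08, edgeR adjusted p = 0.111) and Dmrta2 stood at 0.19 (SE 0.09, adjusted p = 0.196), neither past the threshold. In CPM, Emx1 was higher in both M libraries than in both F libraries (18.6% of all genes were), and Pax6, Emx2 and Nr2f2 were lower (29.6%). Under TMM scaling Emx1 and Dmrta2 were higher (23.9%) and Pax6 and Nr2f2 lower (23.5%), so the placing of Emx2 and Dmrta2 depends on the scaling. Choroid plexus markers were also lower in M, with sums of 795 (KO23M) and 206 CPM (WT22M) against 1021 and 962. WT22M was far below KO23M, so the difference lay mainly in that library. Of 8 tested, 3 were called lower in M, and Ttr was not (edgeR adjusted p = 0.746). Of 5 erythroid markers 2 were called lower in M, Hbb-bt (edgeR adjusted p = 2.92e-06) and Alas2 (0.000707), and their sums were 820 and 713 CPM in M against 912 and 1213 in F. Radial glia markers summed to 1780 and 1768 CPM in M and 1659 and 1709 in F. The part of these markers in the Emx1 difference was not tested.

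**Figure D3:**
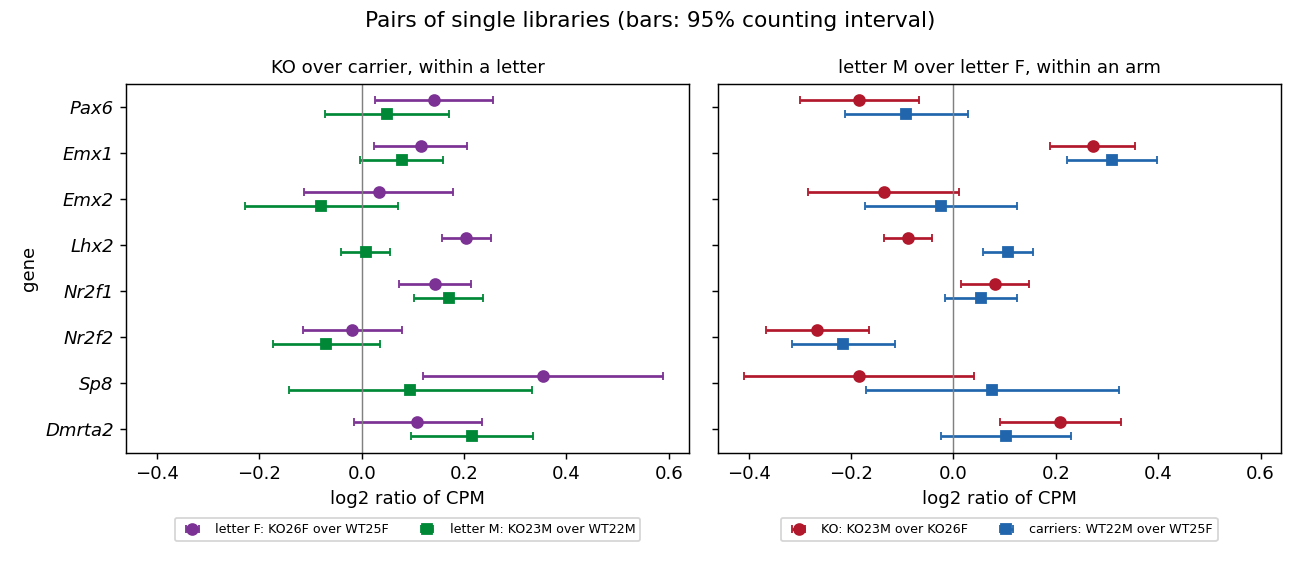
Log2 ratio of CPM between pairs of single libraries with 95% counting intervals: KO-labelled over carrier within each letter (left), M over F within each Tcf20 label (right). Emx1 lies to the right and Nr2f2 to the left in both M over F pairs, and Lhx2 is at 0.20 in letter F and 0.01 in letter M on the left.

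Ratios within a library do not depend on its scaling. The count ratio of Emx1 to Emx2 was 2.67 (KO26F) and 2.52 (WT25F) in F libraries, 3.54 (KO23M) and 3.18 (WT22M) in M libraries. That of Nr2f1 to Nr2f2 was 2.00 in KO26F, 1.79 in WT25F, 2.55 in KO23M and 2.16 in WT22M. For both pairs the 2 M libraries were above the 2 F libraries, and within each letter the KO-labelled library was above the carrier. For Nr2f1 to Nr2f2 the counting intervals of KO23M (2.40 to 2.70) and WT22M (2.03 to 2.29) did not overlap, while those of KO26F (1.89 to 2.12) and WT25F (1.69 to 1.90) overlapped at their ends. For Emx1 to Emx2 they overlapped within each letter. Dmrta2 to Emx2 ran from 1.30 in WT25F to 1.74 in KO23M, with KO26F (1.37) and WT22M (1.42) between. The ratios of the rostral factors to the caudal Emx2 were higher in both KO-labelled libraries than in both carriers. Pax6 to Emx2 was 1.65 in KO26F and 1.59 in KO23M against 1.53 in WT25F and 1.46 in WT22M, and Sp8 to Emx2 was 0.44 and 0.42 against 0.35 and 0.38. The counting intervals of KO-labelled libraries and carriers overlapped for both ratios. Ratios to Nr2f1, also a caudal factor, were not taken, and Nr2f1 was itself higher in both KO-labelled libraries. These values therefore describe ratios to Emx2 and not a shift between rostral and caudal factors. How often other gene pairs separate in this way was not computed.

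**Figure D4:**
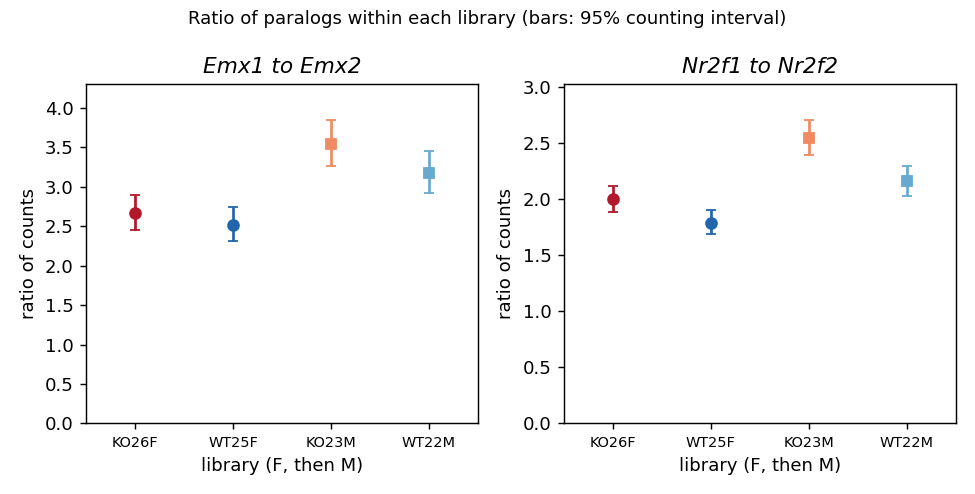
Ratio of counts of Emx1 to Emx2 and of Nr2f1 to Nr2f2 in each library, with 95% counting intervals, F libraries left and M libraries right in each panel. Both ratios are higher in the M libraries, up to 3.54 and 2.55 in KO23M.

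Genes with the most similar profile over the 4 libraries were found for the 4 factors whose highest library was over 1.2 times the lowest, among 11681 genes by root-mean-square distance of centred log2 CPM. The closest to Emx1 were Pkn3 (distance 0.011) and Tmem198 (0.013). For Nr2f2 they were Ddb2 (0.0093) and Prkar2a (0.0096), and for Sp8 Ccdc66 (0.0071) and Otud7b (0.012). For Dmrta2 they were Slc32a1, the vesicular GABA transporter (0.0040), and Neurog2, a proneural factor of cortical progenitors (0.0099). With 4 points a close match is a description of these libraries.

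The signals and partners of the 8 factors were read from 8 gene lists, and 0 genes of any list passed the threshold between KO-labelled libraries and carriers in edgeR. In that fit 50.7% of all genes were on the higher side, the share to set beside each list. Several lists share genes, Dmrt3, Sp9 and Tfap2c among them, so their counts are not independent. Of the rostral Fgf list, 14 of 14 were tested and 7 were on the higher side, with a median log2 fold change of -0.02. Fgf8, the ligand that represses Emx2 and Nr2f1, was scarce, from 0.55 CPM in KO26F to 1.505 in WT25F, and the Fgf-induced factor Etv5 stood at -0.22 (SE 0.13). The hem Wnt and Bmp list had 13 of 14 tested, 8 on the higher side and a median of 0.12. Bmp4, a hem and midline ligand, stood at -0.78 (SE 0.33, unadjusted p = 0.0278, edgeR adjusted p = 1), with its highest level, 4.24 CPM, in WT25F. Of the 6 antihem genes, 3 were on the higher side, and Nrg1, an ErbB ligand, stood at 0.30 (SE 0.16).

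Of the 19 partner factors, 17 were on the higher side (50.7% of all genes were) with a median of 0.13. Dmrt3, which overlaps in function with Dmrta2, had the smallest p of the list: 14.0 CPM in KO26F and 16.1 in KO23M against 9.75 in WT25F and 10.7 in WT22M. Both KO-labelled libraries were above both carriers, with a log2 fold change of 0.55 (SE 0.17, unadjusted p = 0.00396, edgeR adjusted p = 1, and 0.0546 with the letter as a block). Dmrta1, the other gene of that family in the list, stood at 0.71 (SE 0.33), on 1.90 to 4.14 CPM. Sp9, a relative of Sp8 found in ventral neurons, stood at 0.25 (SE 0.11). Of 10 genes known to act downstream of Pax6, 8 were on the higher side with a median of 0.17, led by Sstr2 at 0.24 (SE 0.11) and Dll1 at 0.23 (SE 0.11), while the intermediate progenitor factor Eomes stood at 0.19 (SE 0.11).

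Of 21 genes expressed in graded or area-specific fashion, 7 were on the higher side with a median of -0.08. Crym stood at -0.42 (SE 0.17, unadjusted p = 0.0186, edgeR adjusted p = 1) and Epha7 at -0.26 (SE 0.12). All 10 ventral factors, which Pax6 and Emx2 help to keep out of the cortex, had fitted values on the higher side, with a median of 0.20. Of all genes, 50.7% were on that side. Against WT25F alone all 10 were also higher (50.9% of all genes), with Isl1 at 0.01 and Six3 at 0.03. That contrast uses the same KO-labelled libraries and is not separate evidence. Nkx2-1, a medial eminence factor, was at 47.1 CPM in WT22M against 75.7 to 98.7 elsewhere. WT22M lay below WT25F by a log2 difference of -0.80, with 1 library a side. Between KO-labelled libraries and carriers Nkx2-1 stood at 0.42 (SE 0.42). Meninges markers summed to 320 and 334 CPM in the KO-labelled libraries and to 399 and 407 in the carriers. Of these 8 markers 0 were on the higher side (median -0.29), with 0 called in the main edgeR test and 3 called lower with the letter as a block. Their part in the values of the factors and lists was not tested. Dlx2, a ganglionic eminence homeodomain factor, was at 253 and 277 CPM in the KO-labelled libraries and 206 and 224 in the carriers. Its log2 fold change was 0.30 (SE 0.11, edgeR adjusted p = 1), and with the letter as a block its edgeR adjusted p was 0.000533. Calls with the block in this paragraph rest on 1 residual degree of freedom and may be too many. Of 15 family relatives 10 were tested, and 6 were on the higher side. The 5 others, Pax2, Pax3, Pax5, Pax7 and Pax8, had at most 0.61 CPM, so Pax6 was the one Pax gene of those examined with a usable level. Lhx8, a medial eminence relative of Lhx2, stood at 0.48 (SE 0.17, edgeR adjusted p = 1, and 0.0133 with the block), with its lowest level in WT22M at 14.8 CPM against 23.3 to 26.9. Markers that could bear on Pax6 from the eye were scarce: 3 of 6 were in the files, summing to 1.41 to 3.14 CPM.

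**Figure D5:**
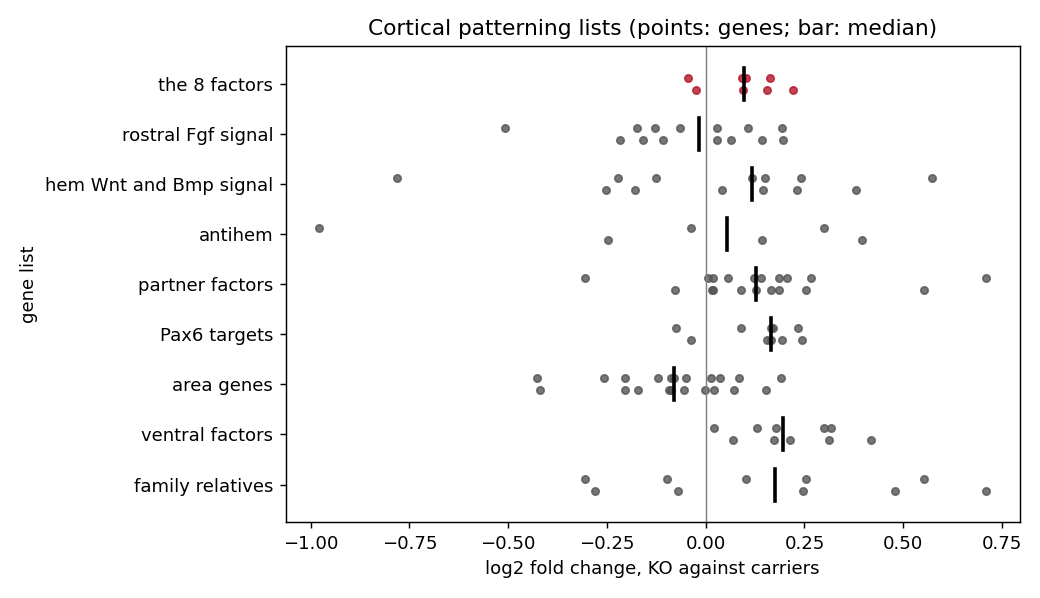
Fitted log2 fold change of KO-labelled libraries against carriers for the 8 factors (red) and each tested gene of the 8 lists (grey), with the median of each list as a bar. The medians run from -0.08 for area genes to 0.20 for ventral factors, and no point is past the threshold.

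Promoter sequence was read for the factors that were higher in both KO-labelled libraries than in both carriers in CPM. It shows base composition and core motifs at a single start of each gene. Windows hold the 250 bases before a RefSeq start on GRCm38.p6, all on the plus strand. Those inside the gene's span in the files are left out. This removes Nr2f1, another start of Lhx2 (68.4% GC, no motif) and further starts of Sp8. Capitals mark matches on either strand, with overlapping matches merged. Matches were counted at any distance from the start, so a match need not be a working element. The motifs sought were the homeodomain core TAATTA and the GC box GGGCGG. The others were the CCAAT box, the nuclear receptor element AGGTCA, and TATAAA for the TATA box. Lhx2 is at chr2:38339031-38339280, Sp8 at chr12:118846079-118846328 and Dmrta2 at chr4:109977775-109978024.
Lhx2: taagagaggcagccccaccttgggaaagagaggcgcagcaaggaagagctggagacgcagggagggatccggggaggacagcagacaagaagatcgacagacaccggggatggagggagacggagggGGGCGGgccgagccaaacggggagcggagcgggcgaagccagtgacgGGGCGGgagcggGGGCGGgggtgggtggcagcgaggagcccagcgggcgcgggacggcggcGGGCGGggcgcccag
Sp8: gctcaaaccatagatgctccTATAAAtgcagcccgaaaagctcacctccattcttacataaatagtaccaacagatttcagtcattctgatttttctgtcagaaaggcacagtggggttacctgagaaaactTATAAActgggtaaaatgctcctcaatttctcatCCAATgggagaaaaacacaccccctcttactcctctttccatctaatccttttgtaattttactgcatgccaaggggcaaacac
Dmrta2: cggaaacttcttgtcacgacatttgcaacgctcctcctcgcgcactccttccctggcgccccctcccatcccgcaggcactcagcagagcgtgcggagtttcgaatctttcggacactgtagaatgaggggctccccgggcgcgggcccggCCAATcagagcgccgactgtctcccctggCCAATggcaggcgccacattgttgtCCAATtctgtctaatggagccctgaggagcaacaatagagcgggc
The Lhx2 window is 72.8% GC and holds 4 GC boxes, while the Sp8 window is 40.8% GC and holds 2 TATAAA and 1 CCAAT. The Dmrta2 window, at 61.6%, holds 3 CCAAT. Over 32851 windows of the same length, the median was 52.4% GC, and a GC box occurred in 32.7%, CCAAT in 33.8%, TATAAA in 12.4%, AGGTCA in 14% and TAATTA in 4.84%. None of the 3 windows holds TAATTA or AGGTCA. No motif was common to all 3. CCAAT is also in the windows before the starts of Pax6 (1 match) and Nr2f2 (2), factors whose groups overlapped. The contents depend on the start taken. Of the Sp8 starts left out, that at chr12:118846983-118847232 is 67.2% GC with 1 GC box, 1 CCAAT and 1 AGGTCA. That at chr12:118847309-118847558 is 50% GC with 1 TAATTA.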

How the data were processed

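In each of 3 tables the authors deposited raw whole-number counts per gene for WT25F and 1 other library, per the file headers. The authors deposited CPM beside them, which divide each count by its library's total. The authors' deposited fold change is a ratio of these CPM values, given also as log2, with a p-value and adjusted p-value from a test not given in the sources used here. Bowtie2 2.2.3, TopHat2 2.0.12, HTSeq 0.6.0 and build mm9 are named in the submitters' processing notes. Of 22039 identifiers found in GENCODE vM21 (GRCm38), 20221 (91.8%) have the identical position there, all 8 factors included, so positions are given on GRCm38.

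Tables were joined by gene identifier, with a gene missing from a table set to 0 counts. Main tests used edgeR 4.0.16 (robust quasi-likelihood, TMM, filterByExpr, Benjamini-Hochberg threshold 0.05) on 16252 genes, 2 libraries against 2. A fit with 3 groups gave the contrasts with WT25F. Only the KO-labelled pair is replicated in that fit, and its spread is taken almost wholly from other genes. Tried as alternatives were DESeq2 1.42.0, RLE size factors, voom of limma 3.58.1, other filters, the title letter as a block and each library left out. Scripts were tested on simulated data, on which false calls of the edgeR fits exceeded the nominal rate with gene-wise dispersions. Counting intervals at 95% are exact Poisson or binomial. The factors and the gene lists were chosen with earlier results of these data known. Named genes are the 8 factors, overlapping or near neighbours, the up to 4 genes of smallest p in each list (given in part), and the 2 most similar profiles. Eomes, Fgf8, Nkx2-1, Hbb-bt, Alas2 and the Pax relatives were named outside this rule, after their values were seen. Some listed genes are not reported here.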

Additional observations from a re-analysis of the deposited data

Results flagged for a closer look

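Emx2 had ratios of opposite sign within the 2 title letters. The log2 ratio of KO-labelled to carrier was 0.03 in letter F and -0.08 in letter M, a difference of 0.11, and both counting intervals (-0.11 to 0.18 and -0.23 to 0.07) hold 0. For Lhx2, M over F was 0.11 in the carriers and -0.09 in the KO-labelled libraries, a difference of 0.20, and neither counting interval (0.06 to 0.16 and -0.14 to -0.04) holds 0. For Sp8 the same ratios were 0.08 and -0.18, a difference of 0.26, and both intervals (-0.17 to 0.32 and -0.41 to 0.04) hold 0. With 1 library in each cell of the design these differences were not tested.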

How the results depend on the processing

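None of the 8 factors was called between KO-labelled libraries and carriers under any alternative. The number of genes called there was 123 with the title letter as a block, 6 with limma voom and 48 to 100 with a library left out. Against WT25F it was 23 in DESeq2 with or without its own filter, 0 with no filter on low counts and 6 with the spread of the 2-arm fit. For WT22M against WT25F these were 33, 0 and 0. Between letters, 41 genes and 0 factors were called without the label term, 42 and 0 in DESeq2, in which 2 of 8 factors had an adjusted p, and 23 and 0 in DESeq2 without its filter. The cause was not tested.

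Of 88 alternative values of the 8 factors for KO-labelled libraries against carriers, 83 kept their direction. With a library left out, Emx1 ran from -0.0747 to 0.27, Emx2 from -0.0749 to 0.0204 and Nr2f2 from -0.16 to 0.0615 on the log2 scale. Against WT25F, Pax6 ran from -0.0076 to 0.13 and Emx2 from -0.068 to 0.0245. Between letters, Emx2 ran from -0.093 to 0.0122, Sp8 from -0.14 to 0.11 and Lhx2 from -0.0457 to 0.14. Leaving out a KO-labelled library in the fit with 3 groups, or any library in the fit with the letter, left no test, and the contrasts with WT25F need that library. No paired analysis was possible by replicate number because the groups share fewer than 2 such numbers, and the title letter served as the block instead. With the longest transcript as length, the mean ratio per kb of Emx1 to Emx2 was 5.80 in KO-labelled libraries and 5.32 in carriers, and that of Nr2f1 to Nr2f2 was 2.99 and 2.60.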
